A study of Homo sapiens with 8 samples.

Results

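Lysosomes are the acidic organelles in which cells break down proteins, glycans, sulfated polysaccharides and lipids taken up from outside or delivered by autophagy. Their hydrolases are made on membrane-bound ribosomes, carry glycans, and mostly reach the lysosome through mannose 6-phosphate receptors, while membrane glycoproteins such as LAMP1 line the organelle and NPC1 and NPC2 export cholesterol from it. In breast cancer cells the cathepsins are known as proteases that can also be secreted. The account covers 38 genes of this system, taken from a list of named lysosomal enzymes, cathepsins and membrane proteins and found by NCBI gene number. All 38 were present among the 19892 genes of the deposited table. By role they comprised 9 cysteine cathepsins, 3 other proteases, 11 glycosidases, 5 sulfatases, 5 enzymes or activators of lipid breakdown and 5 membrane or cholesterol-export proteins.

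The levels came from MDA-MB-231, an established line labelled as triple-negative breast cancer. Cells received an siRNA against ADAR1 (labelled Si-ADAR), an adenosine deaminase that edits double-stranded RNA, or a control siRNA (labelled NC-ADAR). RNA-seq libraries, called Input in the labels, and ribosome profiling (Ribo-seq) libraries were made from each, with 2 libraries in each of the 4 groups. All values therefore describe 1 line and, as far as the labels say, 1 siRNA condition, and neither the siRNA's sequence nor the time point is given in the sources used here.

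Input libraries held 15732757 to 17153716 estimated counts each, and Ribo-seq libraries 14646868 and 14875465 with ADAR1 siRNA, against 11975081 and 10492223 with control siRNA. The part of this difference in Ribo-seq depth in the results was not tested. In TPM, a level scaled by transcript length and library, ADAR RNA stood at 14.8 and 30.6 TPM in the ADAR1 siRNA libraries, against 106.2 and 110.2 TPM in the control libraries. Its footprints stood at 1.55 and 8.41 TPM with ADAR1 siRNA, against 19.1 and 20.3 TPM with control siRNA, so replicate 2 kept more ADAR than replicate 1 in both assays. The log2 fold change was -2.26 ± 0.32 (SE) for RNA, with an adjusted p of 0.0527 (edgeR, quasi-likelihood, adjusted over all genes by Benjamini-Hochberg), and -2.04 ± 0.47 for footprints, with an adjusted p of 0.0485. Mesenchymal markers that the line is known for summed to 6698 and 7293 TPM in ADAR1 siRNA Input libraries and 6503 and 6517 TPM in control Input libraries. Of 7 hormone receptor, ERBB2 and luminal markers, ESR1, PGR, CDH1 and FOXA1 were each under 1 TPM in all 4. ERBB2, EPCAM and GATA3 were detected, at control Input means of 33.3, 13.4 and 7.41 TPM and ADAR1 siRNA Input means of 31.0, 17.5 and 7.15 TPM. Of 10 macrophage and leukocyte markers 5 were under 1 TPM in every Input library, among them PTPRC at up to 0.377 TPM. The list summed to 192 and 186 TPM with ADAR1 siRNA and 242 and 240 TPM with control siRNA, nearly all of it CD68, a lysosomal membrane protein that tumour lines also make, and its part in the results was not tested. Whether replicates were separate cultures is not in the labels, and the spread behind each p-value may therefore be technical. With 2 libraries against 2, an exact permutation test of a single value cannot give a two-sided p under 0.333. In bulk libraries, fewer cells that make a transcript and less of it per cell cannot be told apart.

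Many lysosomal genes are known to share a palindromic promoter element, the CLEAR element, which contains the E-box CACGTG bound by TFEB and its relatives. RefSeq promoter windows on GRCh38.p14, running from 250 bases before to 50 bases after the transcript start, were matched for 26 of the 38 genes by symbol. CACGTG, which reads the same on both strands, was present in 6 of these 26 windows (23.1%), compared with 8.88% of all 15843 windows. The longer TCACGTGA, which contains it, was present in 4 windows (15.4%), compared with 1.43% of all windows, and the same 8 letters with G before and C after them in the windows of GAA and GALNS (7.69%), compared with 0.568%. The stretches of all 6 genes are shown. Of these genes CTSD and GAA are among the 7 of 37 lysosomal genes whose footprints passed the test, and the other 4 are not. No lysosomal gene passed for RNA, and a link between the element and footprints was not tested. Each stretch is printed 5′ to 3′ on the strand of the gene, with every CACGTG in capitals, and ends before the transcript start. The CTSD stretch lies at chr11:1763949-1763994 on the minus strand, GAA at chr17:80101485-80101575 on the plus strand, CTSA at chr20:45891273-45891334 on the plus strand, NEU1 at chr6:31862922-31862967 on the minus strand, GALNS at chr16:88857096-88857141 and chr16:88856954-88856999 on the minus strand, and LAMP1 at chr13:113297027-113297122 and chr13:113297191-113297236 on the plus strand.
CTSD: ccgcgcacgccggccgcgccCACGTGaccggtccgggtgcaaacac
GAA: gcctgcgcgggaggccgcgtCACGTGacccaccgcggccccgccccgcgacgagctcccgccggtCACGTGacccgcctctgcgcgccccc
CTSA: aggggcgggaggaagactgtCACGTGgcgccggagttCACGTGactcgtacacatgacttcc
NEU1: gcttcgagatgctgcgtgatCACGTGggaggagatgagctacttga
GALNS, far: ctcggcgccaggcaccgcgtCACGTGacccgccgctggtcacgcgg
GALNS, near: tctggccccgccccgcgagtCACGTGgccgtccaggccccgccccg
LAMP1, far: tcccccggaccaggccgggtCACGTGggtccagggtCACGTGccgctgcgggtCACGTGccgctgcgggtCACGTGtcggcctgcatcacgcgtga
LAMP1, near: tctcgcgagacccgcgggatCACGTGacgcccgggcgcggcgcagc
LAMP1 carried the most copies, 6 in its window, of which 4 are in its far stretch, 1 is in its near stretch and 1, not printed, lies over the transcript start. These matches are letters in a window and were not tested as sites.

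All 38 genes were detected as RNA in control cells, at mean levels between 1.16 TPM for ARSA (arylsulfatase A) and 961.8 TPM for CTSD (the aspartic protease cathepsin D). Their median level was 47.7 TPM, compared with 15.2 TPM over the 15540 genes above 0, with 32 of the 38 above 10 TPM and 12 above 100 TPM. After CTSD came PSAP, the precursor of the saposins that present lipids to hydrolases, then the cathepsins CTSZ, CTSC, CTSB and CTSL. CTSB and CTSL lay next to each other in that order, at 177.0 and 182.6 TPM for CTSB and 177.0 and 174.6 TPM for CTSL in the control Input libraries, and these do not differ beyond their spread. At the low end, CTSO, CTSK, CTSV and ARSA were each under 3 TPM in both control Input libraries, and CTSK, the osteoclast collagenase, had the lowest footprint level, at 0.084 and 0.18 TPM with ADAR1 siRNA and 0.223 and 0 TPM with control siRNA. CTSV and CTSL are close paralogs, so how reads were split between them is uncertain.

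**Figure D1:**
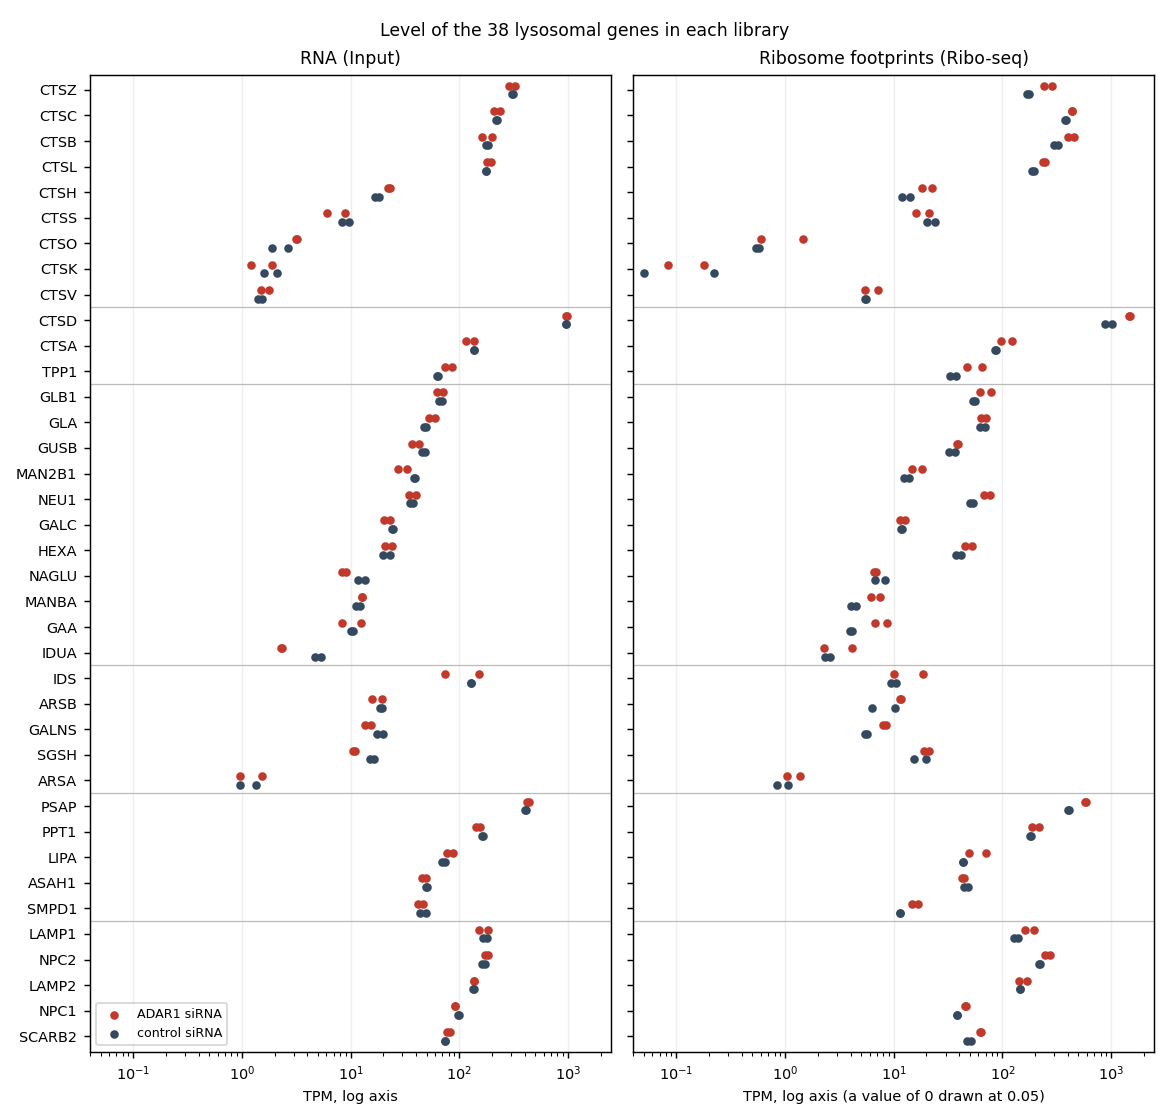
TPM of each of the 38 lysosomal genes in every library on a log axis, RNA on the left and footprints on the right, with ADAR1 siRNA libraries in red and control siRNA libraries in dark blue, and grey lines between the 6 role groups. Red and blue points largely coincide for RNA, whereas red points lie to the right of blue points for most genes as footprints, as for CTSD at 1474 and 1484 TPM against 885.4 and 1015 TPM.

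As a group, the lysosomal genes held overlapping shares of RNA under the 2 siRNAs, and a larger share of footprints in both ADAR1 siRNA libraries than in both control libraries. They made up 0.393% and 0.402% of Input TPM with ADAR1 siRNA, against 0.395% and 0.400% with control siRNA, and these ranges overlap. They made up 0.497% and 0.517% of Ribo-seq TPM with ADAR1 siRNA, against 0.368% and 0.386% with control siRNA, and these ranges do not overlap. The summed footprint level was 5068 ± 138 TPM with ADAR1 siRNA and 3770 ± 134 TPM with control siRNA (SD, n = 2 each), a ratio of 1.34. All 6 role groups had non-overlapping footprint sums, with the higher ones in the ADAR1 siRNA libraries. The ratio was 1.54 for the proteases other than cysteine cathepsins, which are mostly CTSD, between 1.29 and 1.30 for cysteine cathepsins, sulfatases and lipid enzymes, and 1.21 for both glycosidases and membrane proteins. A sum is led by its abundant members, so the same comparison was made gene by gene.

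No lysosomal gene changed at the RNA level at an adjusted p under 0.05 (edgeR, 38 of 38 tested), where 0.253% of all 12644 genes tested did, 0.0791% higher and 0.174% lower. DESeq2 and limma-voom also called 0. Calls over all genes under these 2 tools are not given here, so nothing about the lysosomal genes in particular is read from these counts. At an unadjusted p under 0.05, 2 were higher and 5 lower with ADAR1 siRNA, compared with 11.8% and 13.5% of all genes. The log2 fold changes were above 0 for 19 genes and below 0 for 19, compared with 50.6% of all genes above 0, with a median of -0.01 for the lysosomal genes and 0.00 for all genes tested. Scaled counts of the groups did not overlap for 7 genes that were higher and 10 that were lower with ADAR1 siRNA, compared with 28.5% and 29.7% of all genes. This count of 0 depends on the ADAR1 siRNA libraries. Without replicate 1 of the ADAR1 siRNA Input libraries 14 genes passed, 6 higher and 8 lower, and without replicate 2 of them 19 passed, 3 higher and 16 lower, with the lone library assumed to vary like the controls. Over all genes 4119 and 5420 passed in those 2 fits, and nothing about the lysosomal genes in particular is read from these counts.

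The lowest RNA log2 fold changes among lysosomal genes with non-overlapping groups were those of glycan-degrading enzymes, none of which passed the adjusted test. IDUA, the iduronidase of heparan and dermatan sulfate breakdown, stood at 2.28 and 2.32 TPM in ADAR1 siRNA Input libraries, against 5.37 and 4.73 TPM in control Input libraries. Both ADAR1 siRNA libraries were thus below both controls, with a log2 fold change of -1.15 ± 0.25 (edgeR, adjusted p = 0.0777) on a mean of only 54.8 counts. NAGLU and SGSH, which also act on heparan sulfate, had log2 fold changes of -0.58 ± 0.15 (adjusted p = 0.094) and -0.56 ± 0.13 (adjusted p = 0.0832). MAN2B1, the lysosomal alpha-mannosidase, and GALNS, a sulfatase of keratan sulfate, both had -0.36 (adjusted p = 0.0977 and 0.152). IDUA overlaps SLC26A1, SGSH overlaps CARD14 and GALNS overlaps TRAPPC2L in the RefSeq annotation, and no source used here gives the strand setting of the counting, so reads of such pairs may not be separable.

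The highest RNA log2 fold changes by the same rule were smaller. CTSO had 0.48 ± 0.27, CTSH, which trims amino acids from protein ends, 0.36 ± 0.14 and TPP1, a tripeptidyl peptidase, 0.32 ± 0.10, with adjusted p of 0.313, 0.176 and 0.132. GLA, the alpha-galactosidase, and SCARB2, the receptor that carries glucocerebrosidase to lysosomes, followed at 0.20 ± 0.10 and 0.09 ± 0.06 (adjusted p = 0.242 and 0.409). IDS, the iduronate sulfatase, had the widest spread between replicates among the abundant genes, with 153.2 and 73.3 TPM in ADAR1 siRNA Input libraries and 127.4 and 126.9 TPM in control ones, so that the ADAR1 siRNA values lie on both sides of the controls. It alone accounts for most of the spread in the sulfatase sum, 157 ± 60 TPM with ADAR1 siRNA and 182 ± 3 TPM with control siRNA (SD, n = 2 each).

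**Figure D2:**
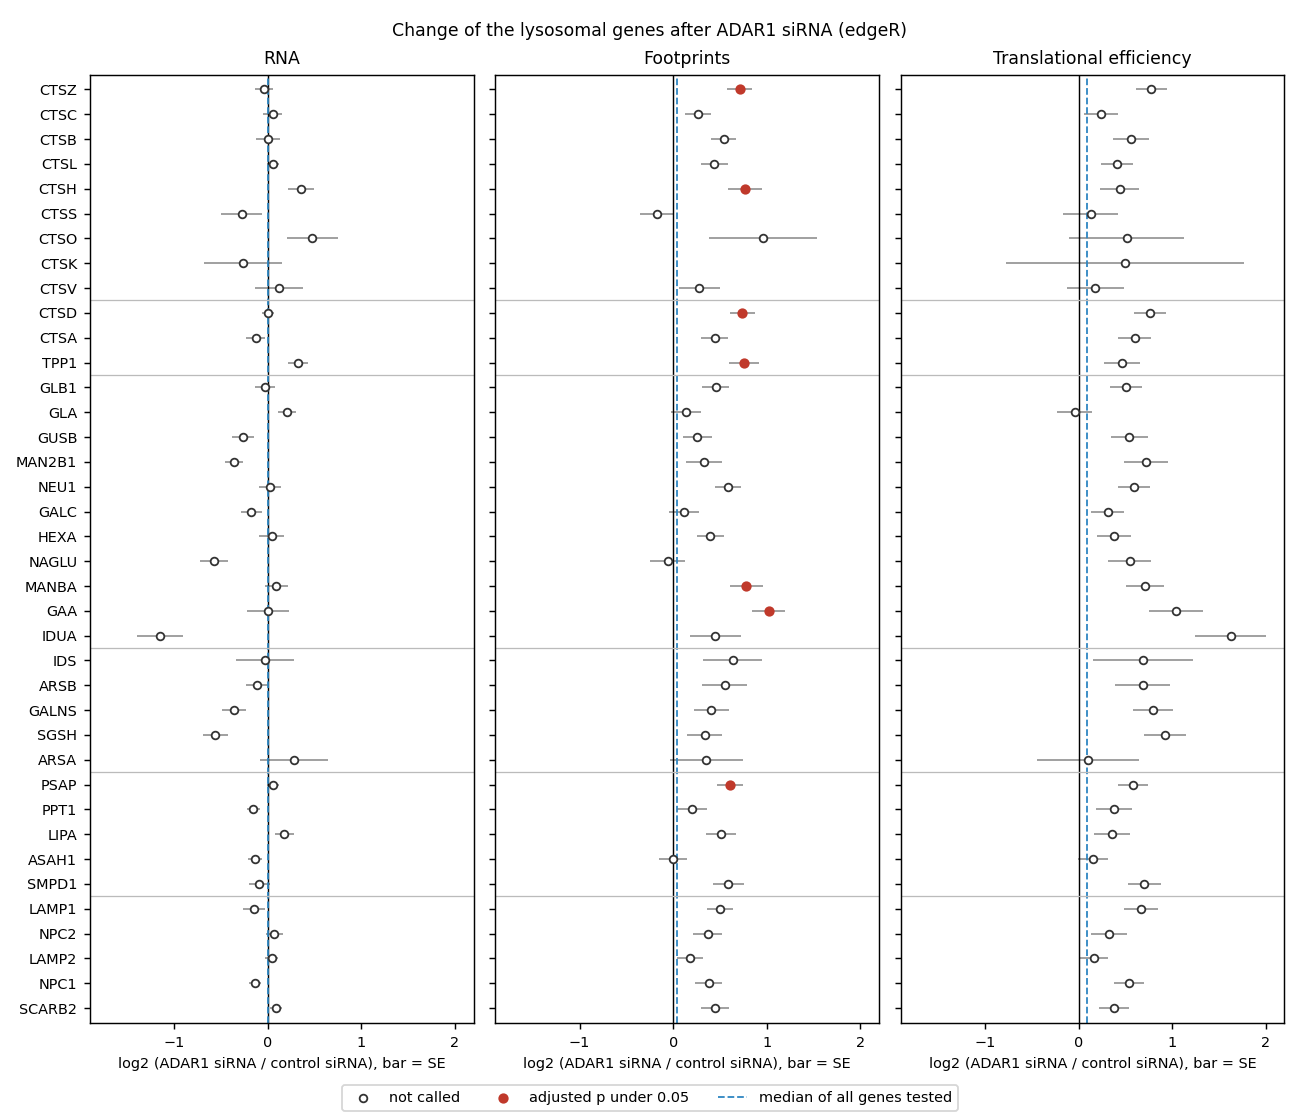
Log2 fold change (ADAR1 siRNA over control siRNA, bar = SE) of each lysosomal gene for RNA, footprints and translational efficiency from edgeR, with genes at an adjusted p under 0.05 in red and the median of all genes as a dashed line; CTSK had too few footprints for the middle panel. The 38 RNA values scatter on both sides of 0, whereas 34 of 37 footprint values and 37 of 38 translational efficiency values lie above 0.

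At the level of ribosome footprints, 7 lysosomal genes rose and none fell after ADAR1 siRNA (edgeR, adjusted p under 0.05, 37 tested, CTSK removed by the filter on low counts). DESeq2 called 10 and limma-voom 4, all higher, and 978 and 250 over all genes in either direction. They were the proteases CTSD, TPP1, CTSZ and CTSH, the glycosidases GAA and MANBA, and PSAP. Of all 12000 genes tested 3.54% passed, 1.88% higher and 1.67% lower, which is 225 and 200 genes (311 and 176 with upper-quartile scaling). At an unadjusted p under 0.05, 20 lysosomal genes were higher and 0 lower, compared with 12.6% and 11.3% of all genes. The log2 fold changes were above 0 for 34 of the 37, compared with 54.4% of all genes, with a median of 0.44 for the lysosomal genes and 0.05 for all genes. Scaled counts did not overlap for 29 genes, all of them higher with ADAR1 siRNA, compared with 30.1% of all genes in that direction. The calls rest on both control libraries. Without control Ribo-seq replicate 1 only GAA passed and without replicate 2 no lysosomal gene did, whereas 16 and 23 passed without ADAR1 siRNA Ribo-seq replicate 1 and 2. Over all genes 380 and 77 passed without control replicate 1 and 2, and 1868 and 3415 without ADAR1 siRNA replicate 1 and 2. In these 4 fits 1 group holds 1 library, which is assumed to vary like the other group. Nothing about the lysosomal genes in particular is read from the counts passing. The median stayed between 0.40 and 0.46 in these 4 fits.

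Among the cysteine cathepsins, 2 of the 8 tested rose. CTSZ, a carboxypeptidase, had 240.2 and 288.1 TPM of footprints with ADAR1 siRNA, against 167.0 and 176.8 TPM with control siRNA, and a log2 fold change of 0.71 ± 0.14 (edgeR, adjusted p = 0.0393). Its RNA stood at 285.8 and 324.2 TPM with ADAR1 siRNA and 308.3 and 313.7 TPM with control siRNA, so its RNA groups overlap while its footprint groups do not. CTSH had 18.3 and 22.7 TPM of footprints with ADAR1 siRNA, against 12.0 and 14.2 TPM with control siRNA (0.77 ± 0.18, adjusted p = 0.0490). This call was lost with relative log expression scaling and with limma-voom. The RNA groups of CTSH did not overlap either, at 22.2 and 23.0 TPM with ADAR1 siRNA and 18.1 and 16.6 TPM with control siRNA. CTSB, a cysteine protease prominent in tumour cells, missed the threshold with 396.7 and 455.8 TPM in ADAR1 siRNA libraries and 298.1 and 322.5 TPM in control libraries (0.54 ± 0.13, adjusted p = 0.0546), and it was singled out after its values were seen. CTSS, the antigen-processing cathepsin, had overlapping footprint groups, 16.0 and 20.9 TPM with ADAR1 siRNA and 24.0 and 20.1 TPM with control siRNA.

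The other proteases had the highest median footprint log2 fold change of the 6 role groups, 0.74 over 3 genes, of which 2 rose. CTSD footprints stood at 1474 and 1484 TPM with ADAR1 siRNA, against 885.4 and 1015 TPM with control siRNA, with a log2 fold change of 0.74 ± 0.13 (edgeR, adjusted p = 0.0346). CTSD RNA was nearly level, at 968.0 and 977.7 TPM with ADAR1 siRNA and 967.7 and 955.8 TPM with control siRNA. TPP1 had 47.5 and 64.9 TPM of footprints with ADAR1 siRNA, against 32.9 and 37.6 TPM with control siRNA (0.76 ± 0.16, adjusted p = 0.0429). Unlike CTSD, TPP1 also had non-overlapping RNA levels some way apart, 73.7 and 85.4 TPM with ADAR1 siRNA and 63.5 and 62.7 TPM with control siRNA. CTSA, the carboxypeptidase that protects NEU1 and GLB1, was not called, with 97.3 and 123.2 TPM of footprints in ADAR1 siRNA libraries and 85.1 and 87.2 TPM in control libraries.

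Of the 11 glycosidases 2 rose, with a median footprint log2 fold change of 0.39 over all 11. GAA, which degrades lysosomal glycogen, had 6.70 and 8.74 TPM of footprints with ADAR1 siRNA, against 4.11 and 3.96 TPM with control siRNA, a log2 fold change of 1.02 ± 0.18 (edgeR, adjusted p = 0.0336). MANBA, the beta-mannosidase, had 6.20 and 7.52 TPM with ADAR1 siRNA, against 4.48 and 4.03 TPM with control siRNA (0.78 ± 0.18, adjusted p = 0.0460). Both are weakly expressed enzymes, and the footprint groups of each stand apart. NEU1, the lysosomal sialidase, had 67.9 and 77.3 TPM with ADAR1 siRNA and 49.8 and 53.3 TPM with control siRNA, also without overlap, and just missed the threshold (adjusted p = 0.0524, named after its values were seen). NAGLU, whose RNA groups did not overlap, had overlapping footprint groups, 6.89 and 6.53 TPM with ADAR1 siRNA and 6.78 and 8.38 TPM with control siRNA.

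None of the 5 sulfatases was called, with a median footprint log2 fold change of 0.41. GALNS footprints were 7.92 and 8.46 TPM with ADAR1 siRNA and 5.70 and 5.45 TPM with control siRNA, which do not overlap. IDS footprints were 18.5 and 10.1 TPM with ADAR1 siRNA and 10.4 and 9.41 TPM with control siRNA, so replicate 1 held more IDS than replicate 2 in both assays after ADAR1 siRNA.

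Of the 5 genes of lipid breakdown 1 rose, and the median was 0.51. PSAP had 583.7 and 568.8 TPM of footprints with ADAR1 siRNA, against 397.7 and 411.5 TPM with control siRNA, a log2 fold change of 0.61 ± 0.14 (edgeR, adjusted p = 0.0457), while its RNA stood at 433.8 and 418.1 TPM with ADAR1 siRNA and 398.8 and 411.9 TPM with control siRNA. SMPD1, the acid sphingomyelinase, was not called at 14.6 and 16.6 TPM with ADAR1 siRNA and 11.4 and 11.3 TPM with control siRNA, although its groups stand apart. ASAH1, the acid ceramidase, had 43.9 and 42.3 TPM of footprints in ADAR1 siRNA libraries and 44.5 and 48.2 TPM in control libraries, the one gene with lower TPM in both ADAR1 siRNA libraries, though its scaled counts overlap. LIPA, the acid lipase, spans several interferon-induced IFIT genes in the RefSeq annotation and PPT1, a thioesterase, overlaps the abundant CAP1, so counts of both are uncertain.

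None of the 5 membrane and cholesterol-export genes was called, and their median was 0.38. LAMP1 had 160.3 and 196.5 TPM of footprints with ADAR1 siRNA and 128.0 and 139.0 TPM with control siRNA, and NPC1, the membrane cholesterol transporter, had 46.6 and 45.6 TPM with ADAR1 siRNA and 37.8 and 38.2 TPM with control siRNA. Neither pair of groups overlaps, and NPC1 shares its locus with RMC1 in the RefSeq annotation. LAMP2, which also serves chaperone-mediated autophagy, had overlapping TPM levels, though not overlapping scaled counts, 141.0 and 168.8 TPM with ADAR1 siRNA and 145.4 and 145.0 TPM with control siRNA.

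Translational efficiency (TE) was deposited by the authors as Ribo-seq TPM over Input TPM. In control cells most lysosomal genes lay above the median TE of all genes. As a sum they held 0.368% and 0.386% of control Ribo-seq TPM, no more than their 0.395% and 0.400% of control Input TPM. Among the 34 lysosomal genes with a mean of at least 50 counts in both assays of the control group, the median control TE was 0.744, compared with 0.411 over all 9497 such genes. In this ranking 27 lay above the median of all genes and 7 below it, with 15 at or above the 75th percentile of 0.804 and 1 at or below the 25th percentile of 0.214. CTSS ranked first with 2.62 and 2.36 in ADAR1 siRNA libraries and 2.47 and 2.39 in control libraries, followed by HEXA, a subunit of hexosaminidase, and by CTSB and CTSC. IDS ranked last, with 0.120 and 0.138 in ADAR1 siRNA libraries and 0.0819 and 0.0741 in control libraries. The median over the lysosomal genes was 0.945 and 0.958 in the ADAR1 siRNA libraries and 0.722 and 0.744 in the control libraries, compared with 0.345 and 0.417 and with 0.395 and 0.422 over all genes, so the lysosomal medians of the 2 siRNAs stand apart and those of all genes overlap. This is a description of ratios on a TPM scale, with no test.

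**Figure D3:**
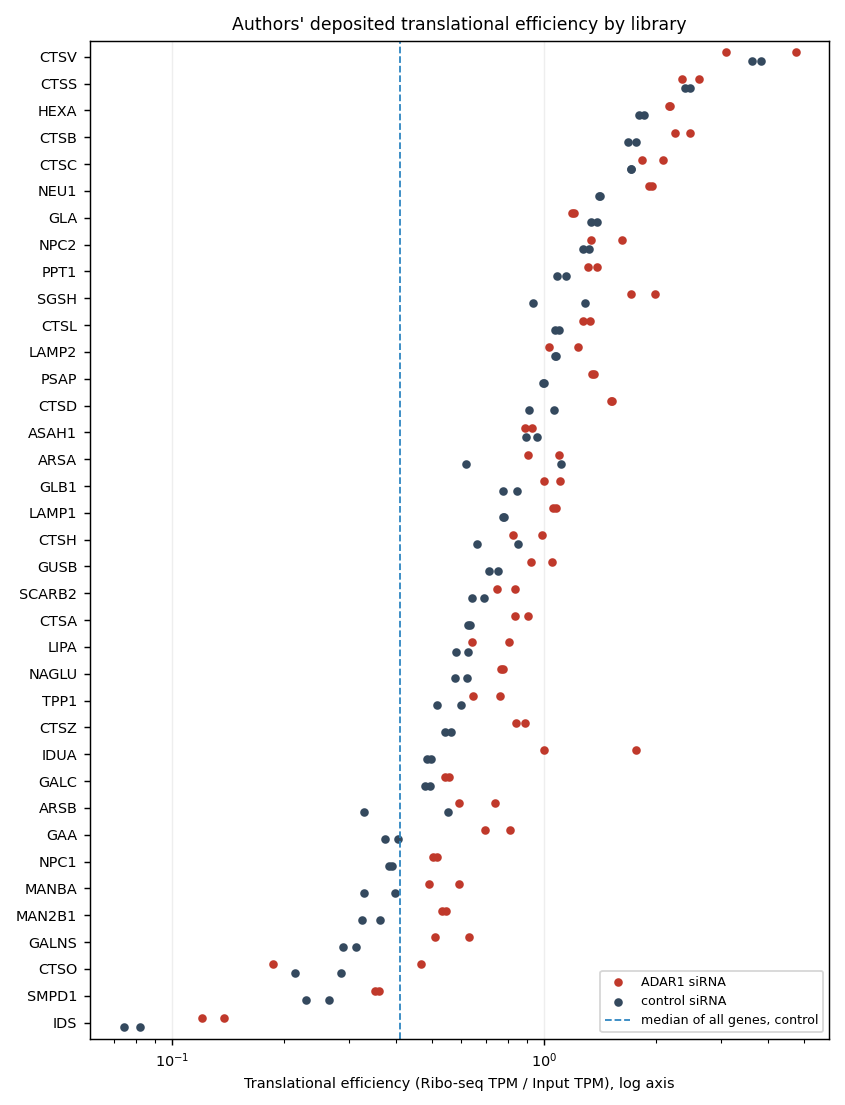
The authors' deposited TE (Ribo-seq TPM over Input TPM, log axis) of 37 lysosomal genes in the 2 ADAR1 siRNA (red) and 2 control siRNA (dark blue) library pairs, ordered by control level, with the median of all genes in control cells dashed; CTSK is left out because 1 control value is missing. Red points lie to the right of blue points for 29 genes, to the left for GLA, and overlap for 7. The share over all genes was not computed for this deposited ratio. By scaled counts, TE groups did not overlap for 31 of 38 lysosomal genes, all higher with ADAR1 siRNA. Over all genes tested, 33.7% were higher and 23.5% lower without overlap.

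In the model over all 8 libraries, no lysosomal gene passed the adjusted test for a change in TE (edgeR interaction of assay and siRNA, 38 tested), where 0.0463% of all 12953 genes, or 6, did, 0.0154% higher and 0.0309% lower. At an unadjusted p under 0.05, 22 lysosomal genes were higher and 0 lower with ADAR1 siRNA, compared with 13.2% and 9.48% of all genes. The log2 changes were above 0 for 37 of 38, compared with 57.3% of all genes, with a median of 0.53 for the lysosomal genes and 0.09 for all genes, and the footprint log2 fold change exceeded that of RNA in 36 of the 37 genes tested in both. The TE of each ADAR1 siRNA replicate number, from same-numbered Ribo-seq and Input libraries, was also set against the mean TE of both controls. For number 1 the median log2 difference was 0.68, with 37 of 38 above 0. For number 2 it was 0.43, with 36 of 38 above 0. Over all genes the medians were 0.12 and 0.05, with 57.6% and 55.1% above 0. Both numbers share the same control mean, so they are not independent. Calls came with other choices. DESeq2 called 9 genes, limma-voom 0, the fit without a filter on low counts 7, and the fits without ADAR1 siRNA Ribo-seq replicate 1 and 2 called 3 and 15, all higher. Over all genes, DESeq2 called 982, limma-voom 0, the fit without a filter 854, and the fits without those libraries 507 and 2252.

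The highest TE log2 changes under the naming rule combined different RNA and footprint patterns. IDUA came first at 1.62 ± 0.38 (edgeR, adjusted p = 0.0587), with deposited TE of 1.00 and 1.77 in ADAR1 siRNA libraries and 0.485 and 0.496 in control libraries, but its footprint groups overlapped and its RNA was at lower values with ADAR1 siRNA. GAA, at 1.04 ± 0.29 (adjusted p = 0.0787), had overlapping RNA groups and risen footprints. SGSH and GALNS, at 0.92 ± 0.23 (adjusted p = 0.0602) and 0.79 ± 0.22 (adjusted p = 0.0726), had lower RNA values with ADAR1 siRNA, and CTSZ, at 0.78 ± 0.17 (adjusted p = 0.0554), had overlapping RNA groups. GLA was the gene below 0 (its deposited TE was 1.19 and 1.20 in ADAR1 siRNA libraries and 1.34 and 1.39 in control libraries).

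**Figure D4:**
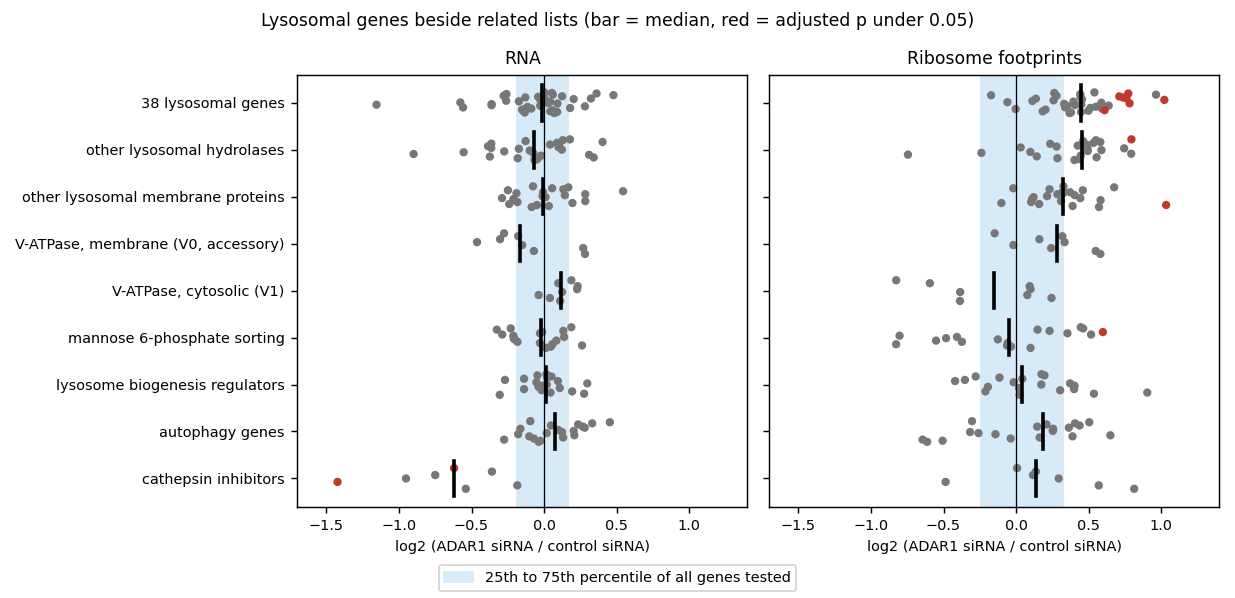
Log2 fold change (ADAR1 siRNA over control siRNA) of the 38 lysosomal genes and of 7 related lists, for RNA on the left and footprints on the right. V-ATPase is split by sector, a split made after the values were seen. Points are genes, black bars medians and red points genes at an adjusted p under 0.05. The band is the 25th to 75th percentile of all genes. In the footprint panel the medians are 0.44 for the lysosomal genes and 0.45 for other lysosomal hydrolases, and -0.05 for the sorting genes.

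The rest of the lysosomal pathway was compared from lists of genes that are not among the 38. Among other lysosomal hydrolases, 22 of 24 tested had a footprint log2 fold change above 0, with a median of 0.45. Other lysosomal membrane proteins and transporters had 20 of 22 above 0 with a median of 0.32, and SIDT2, a lysosomal nucleic acid channel, rose (1.03 ± 0.24, edgeR, adjusted p = 0.0490).

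The V-ATPase, sorting, biogenesis regulator and autophagy lists had footprint medians nearer that of all genes. The proton-pumping V-ATPase had 0 of 16 subunits called and a median of 0.10. It was split by sector after the values were seen, with 0.28 for the membrane sector and accessory subunits and -0.15 for the cytosolic sector. ATP6V1A of the cytosolic sector had the smallest p (-0.83 ± 0.20, edgeR, adjusted p = 0.0505). Genes of mannose 6-phosphate tagging and sorting had 8 of 18 above 0 and a median of -0.05. The one that rose was IGF2R, the large mannose 6-phosphate receptor (0.60 ± 0.14, adjusted p = 0.0490). Biogenesis regulators such as the TFEB family had a median of 0.04 over 19 genes and autophagy genes 0.19 over 20, with none called. The genes of smallest p there were PPP3CB (0.54, adjusted p = 0.116) and VPS33A (-0.61, adjusted p = 0.059).

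At the RNA level these lists held calls among the cathepsin inhibitors alone. Of the 12 inhibitors listed 7 were tested, of which 2 fell and all 7 were below 0, with a median of -0.62. Over all genes tested, 0.174% were called lower and 50.6% had a log2 fold change above 0. The other 6 lists had RNA medians between -0.07 and 0.07. CST3, cystatin C, the main secreted inhibitor of cysteine cathepsins, stood at 316.2 and 317.4 TPM with ADAR1 siRNA, against 488.7 and 486.9 TPM with control siRNA (-0.62 ± 0.07, edgeR, adjusted p = 0.0488). CST4, a salivary cystatin, stood at 55.0 and 62.8 TPM with ADAR1 siRNA, against 151.6 and 161.8 TPM with control siRNA (-1.42 ± 0.12, adjusted p = 0.0346). Both calls were lost without either control Input library, and that of CST3 with upper-quartile scaling. No inhibitor passed the adjusted test for footprints. Of the 7, 6 were above 0, compared with 54.4% of all genes, with a median of 0.14. CST4 stood at -0.49 (edgeR, adjusted p = 0.0887), with footprint groups that did not overlap. CST4 belongs to a family of near-identical cystatins, so its counts are uncertain. The 7 lists' TE medians were 0.89 for the inhibitors, 0.48 for other hydrolases, 0.36 for membrane proteins and transporters, and between 0.05 and 0.18 for the others, with no gene called.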

How the data were processed

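Per the labels' protocols, cleared lysates were spun through sucrose gradients and RNA was size-selected on gels into footprint-sized (Ribo-seq) and longer (Input) fragments, followed by adapter ligation and PCR, with no molecular identifiers mentioned. Per the submitters' processing notes, the tools included featureCounts, STAR, Bowtie2 and cutadapt, on GRCh38 (hg38). No source used here gives their roles, versions or settings. The authors deposited estimated counts per gene without normalization, of which 87.0% to 90.1% per library were whole numbers. TPM values were deposited by the authors as a level per length and library. The authors' deposited translational efficiency is a ratio that equalled the Ribo-seq TPM over the Input TPM of the same siRNA and replicate number, within 0.001, for all values. Symbols were matched by NCBI gene number for 19669 of 19892 genes.

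Rounded estimated counts entered edgeR 4.0.16 under R 4.3.3 (TMM scaling, filterByExpr, quasi-likelihood test, two-sided, Benjamini-Hochberg over all genes, 0.05). RNA used the 4 Input libraries, footprints the 4 Ribo-seq libraries, and TE the interaction over all 8. SE is the log2 fold change over the square root of F. Every replicate pair differed by more than sampling noise, so all libraries were kept. The scripts were tested on simulated counts. There, false calls made up 9.3% of calls for RNA, 7.5% for footprints and 8.7% for TE, above the 0.05 threshold. Changes of 1.5-fold were called in 70% of cases for RNA, 18% for footprints and 6% for TE. A lack of footprint or TE calls at that size is therefore weak evidence of no change. Alternatives were DESeq2 1.42.0, limma-voom 3.58.1, other scalings and filters, a replicate block and leaving out each library. The same replicate numbers were not shown to pair ADAR1 siRNA with control libraries. Whether they pair Input with Ribo-seq libraries was not checked, and the main TE fit did not pair them.

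Folds and tests are given for ADAR, for every gene called, and for up to 5 largest rises and 5 largest falls among lysosomal genes with non-overlapping groups and at least 50 counts on average. From each related list the genes called are named, or otherwise the one of smallest p in a comparison that is described. An item of the related lists is not reported here. The members, lists and rules were chosen with earlier results of these data known. Promoter sequences are from RefSeq (GRCh38.p14).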

Additional observations from a re-analysis of the deposited data

How the results depend on the processing

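The 7 genes whose footprints rose were all kept with upper-quartile scaling (9 lysosomal genes called), with no filter (13), with a mean count of at least 50 (9), with DESeq2 (10) and without either ADAR1 siRNA Ribo-seq library. Of the 7, 6 were kept with relative log expression scaling (6 called) and 4 with limma-voom (4 called). CTSH was lost with both, and MANBA and PSAP with limma-voom. Calls over all genes are not given here for relative log expression scaling and for the 2 other filters. A higher or lower lysosomal count under these settings is therefore not read as a result about the lysosomal genes. Leaving out 1 library gave 0 to 23 footprint calls, the lowest without control Ribo-seq replicate 2 (1 without control replicate 1), and 77 to 3415 calls over all genes, against 425. The median footprint log2 fold change of 0.44 was 0.41 with relative log expression scaling and DESeq2, 0.49 with upper-quartile scaling, and 0.40 to 0.46 without 1 library, against medians of all genes of 0.01 and 0.09 under the first and the last scaling. For RNA, leaving out 1 library gave a median of -0.13 to 0.05. The other scalings, filters and tools gave 0 lysosomal calls for RNA, and their calls over all genes are not given here. For TE the count of 0 became 7 with no filter, 9 with DESeq2, and 0 to 15 without 1 library, where calls over all genes were 854, 982 and 0 to 2252, against 6. The TE median of 0.53 ranged from 0.34 to 0.56, lowest without ADAR1 siRNA Input replicate 1. ADAR's TE log2 change of 0.25 became 0.94 without ADAR1 siRNA Ribo-seq replicate 1, and turned to -1.16 without ADAR1 siRNA Ribo-seq replicate 2 and to -0.26 without ADAR1 siRNA Input replicate 1. The cause was not tested.

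The replicate numbers were not shown to pair ADAR1 siRNA with control libraries: deviations of same-numbered libraries correlated at 0.002 (Input) and 0.021 (Ribo-seq). This check was made within each assay, so it cannot show whether Input and Ribo-seq libraries of the same siRNA and number are paired. With the replicate block, 4 lysosomal genes were called for RNA, 19 for footprints (all 7 kept) and 4 for TE, and 1095, 2102 and 715 over all genes. A block that pairs the Input and Ribo-seq library of the same siRNA and number, chosen after seeing the data, called 11 for TE. Calls over all genes in that fit are not given here, so nothing about the lysosomal genes in particular is read from this count.

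Depth limits the weakest genes: CTSK was not tested for footprints, and CTSO, CTSV, ARSA and IDUA rest on few counts. Having 2 libraries a group limits every call.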
